A study of Drosophila melanogaster with 2 samples.

Results

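The products described here are the candidate microRNAs (miRNAs) of Drosophila melanogaster heads to which the authors gave names that start with novel_mir. All rows with such a name in the count tables of the 2 libraries were taken, and no level or ratio was used to choose them. There were 99 names, each with its own sequence, of 339 sequences in all; the other 240 were known mature miRNAs. Both libraries came from heads of adult females of Canton-S, a wild-type stock, at 3 to 5 days of age, with about 180 flies pooled per sample. The control flies stood in an air stream without ethanol for 45 minutes. The ethanol flies had 15 minutes of ethanol vapour, which sedated them, and then 30 minutes of air. With 1 library per group nothing here is tested against replicate error, and a difference between the libraries cannot be told apart from a difference between the treatments.

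A miRNA is cut from a short RNA hairpin in steps that leave a duplex of fixed size, and one strand of the duplex is loaded into an Argonaute protein. The bases next to its 5′ end, the seed (bases 2 to 8), choose the messenger RNAs it acts on. Many fly miRNAs begin with uracil, which Argonaute1 favours, and their 5′ end is cut more exactly than their 3′ end. In small RNA libraries, fragments of transfer RNA and other abundant RNAs can fall in the same size range as miRNAs.

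The library total was 17337082 reads for the control and 17600983 reads for ethanol. Known miRNAs held 13692046 and 13128478 of these reads, and the lowest count in either table was 5. Both libraries listed all 5 miRNAs taken as head and nervous system markers. These held 23.97% of known miRNA reads in the control library against 17.2% after ethanol. Most of those reads were let-7-5p (1691463 control and 1068905 ethanol reads) and miR-34-5p (1410181 and 1057999). The others were miR-124-3p (111087 and 55203), miR-210-3p (59960 and 59953) and miR-7-5p (8922 and 9816), so the members did not all fall. The 2 muscle markers held 31.4% and 30.2% of known miRNA reads. Markers of gut, early embryo and gonads held at most 0.018% per list. miR-309-3p of the embryo list was in neither table, and of the gonad list 3 of 5 were in the control and 4 in the ethanol table. Their part in the candidates' reads was not tested.

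Only 4 sequences are printed, because they could be tied to a chromosome through the annotation of a known hairpin. The candidates novel_mir_10 and novel_mir_70 were tied to it by exact complementarity to miR-305-5p, not by a search of the genome. miR-306-3p is shown as the known miRNA whose seed another candidate shares. Capitals mark the seed, and all run 5′ to 3′, with T for U.
novel_mir_10: cAGAGCACctgatgaagtacaat
novel_mir_70: cAGAGCACctgatgaagtaca
miR-305-5p: aTTGTACTtcatcaggtgctctg
miR-306-3p: gGGGGTCActctgtgcctgtgc
The mir-305 and mir-306 genes lie on chromosome arm 2L in the RefSeq annotation of Release 6.

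Candidates were rare. The 65 listed in the control library held 1651 reads, or 95.2 RPM, the authors' reads scaled to the library total (0.0095% of reads, exact 95% interval 0.0091 to 0.0100%). The 63 listed in the ethanol library held 1621 reads, or 92.1 RPM (0.0092%, 0.0088 to 0.0097%). Intervals of reads and ratios here and below cover counting error only, and may be too narrow since reads copied by PCR are not independent molecules. Intervals of shares of names or sequences treat each as an independent draw, though some candidates overlap or share parts. The median listed candidate had 10 control reads or 9 ethanol reads, and 31 and 33 of them had fewer than 10. The reads were held by few names, as the 3 with the most took 46.6% of control and 49.6% of ethanol candidate reads.

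novel_mir_18, of 21 bases with 52.4% guanine, had 346 control and 355 ethanol reads. It was the most abundant candidate in both, and 117 and 113 known miRNAs had fewer reads. novel_mir_53 had 111 and 108 reads, and novel_mir_38 had 47 and 53. These were the other candidates listed in both libraries with 100 reads or more over the pair. They differ widely in composition: novel_mir_53 held 65.0% guanine, while novel_mir_38, at 27.3% guanine plus cytosine, was the lowest of all 99 in that measure. The next by reads over both libraries among those listed in both were novel_mir_15 with 35 and 36 reads, novel_mir_29 with 42 and 21, novel_mir_7 with 35 and 25, and novel_mir_43 with 31 and 23.

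Both tables listed 29 of the 99 candidates (29.3%, exact 95% interval 20.6 to 39.3%), while 36 were in the control table alone and 34 in the ethanol table alone. Of the 240 known miRNAs, 221 (92.1%, 87.9 to 95.2%) were listed in both. The comparison was repeated at like counts, since candidates were rarer. Among products whose higher count was 5 to 9 reads, 6 of 52 candidates and 10 of 28 known miRNAs were in both tables. At 10 to 19 reads these were 11 of 24 and 19 of 20. At 20 reads or more, 12 of 23 candidates (52.2%, 30.6 to 73.2%) were in both, against all 192 known miRNAs (98.1 to 100%), of which 75 had no more reads than the most abundant candidate.

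**Figure D1:**
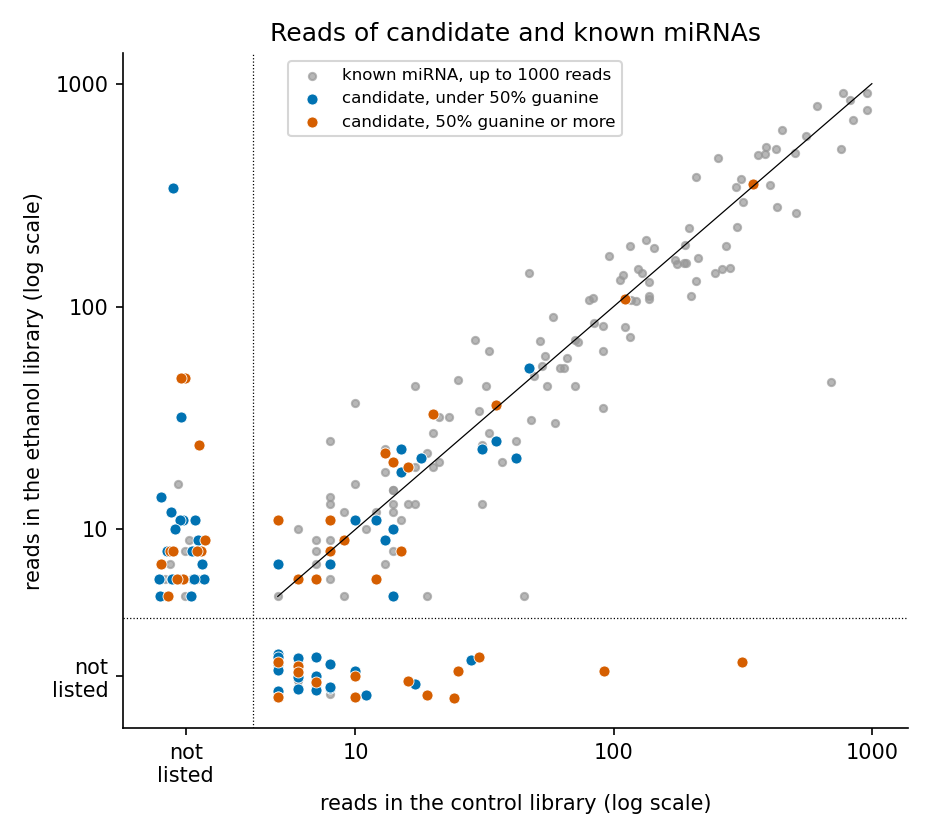
Reads of each product in the control (x axis) and ethanol library (y axis), both on log scales, with products missing from a table spread in a strip at "not listed"; the line marks equal reads and the most abundant known miRNAs are left out. Orange marks candidates with 50% guanine or more, blue the others, grey known miRNAs. Candidates listed in both libraries lie along the line, while others with up to 341 reads sit in the strips, where no known miRNA has more than 16 reads.

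The candidates in 1 table alone included some of the most abundant. novel_mir_24 had 313 reads in the control and was not in the ethanol table. novel_mir_89 had 341 reads in the ethanol library and was not in the control table. The next in the control alone were novel_mir_36 with 92 reads, novel_mir_14 with 30, novel_mir_54 with 28 and novel_mir_8 with 25. In the ethanol library alone, novel_mir_81 had 48 reads, novel_mir_95 also 48, novel_mir_79 had 32 and novel_mir_97 had 24. Among known miRNAs, the highest count of a product listed in 1 table alone was 16.

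The names follow the tables. Numbers 1 to 65 were the candidates of the control library, and 66 to 99 were those of the ethanol library alone. The authors' deposited table that compares the libraries holds 26 candidates, each with at least 18 reads in a library, and none of the other candidates exceeded 17. In the authors' deposited table, 12 candidates have a count of 0 in one library, 5 for the control and 7 for ethanol, and all 12 are those missing from that library's own table. Whether a missing name stands for no reads or for reads that were not counted under that name was not stated, so no ratio is given for it.

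Some sequences stood under different names in the 2 tables. In 6 pairs, a candidate of the control table alone and a candidate of the ethanol table alone were identical over their whole shared stretch, with each end differing by at most 2 bases. The pairs hold 12 of the 70 candidates listed in 1 table. The pair with the most reads was novel_mir_62, with 24 control reads and 21 bases, and novel_mir_97, with 24 ethanol reads and 20 bases. The printed novel_mir_10 and novel_mir_70 had 17 control and 11 ethanol reads, and novel_mir_70 stops 2 bases earlier.

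The remaining pairs had between 6 and 11 reads per name. novel_mir_2 had 10 control reads and novel_mir_67 had 8 ethanol reads. novel_mir_4 had 7 and novel_mir_69 had 11. novel_mir_22 had 7 and novel_mir_78 had 6, and novel_mir_60 had 6 and novel_mir_96 had 8. In a further pair, novel_mir_13 with 10 control reads and novel_mir_71 with 6 ethanol reads, 19 bases were shared and the 3′ ends lay 3 bases apart. Over the 7 pairs the ratio of ethanol to control, each scaled to the library's known miRNA reads (CPM), ran from 0.63 to 1.64, and the counting interval held 1 in all 7. These intervals were wide: 0.57 to 1.92 for novel_mir_62 and novel_mir_97, and 0.42 to 4.86 for novel_mir_60 and novel_mir_96. A pair also needed both names to be listed, and no listed count was below 5, which keeps out large differences. Equal levels are therefore not shown.

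In 5 of the 6 pairs the 5′ ends were the same, so both names carry the same seed; in the sixth, novel_mir_69 starts 1 base after novel_mir_4. In all 6 pairs, and in the seventh with the wider limit, the name of the control library was the longer. Among candidates in 1 table alone, 2 of 36 control names (5.56%) and 8 of 34 ethanol names (23.5%) had 20 bases. This was the shortest length present. The 8 ethanol names include novel_mir_71, novel_mir_96 and novel_mir_97, the shorter members of pairs above. Their share is therefore not independent of the pairs. Of the 29 candidates listed in both libraries, 5 had 20 bases. The mean length was 21.7 bases for all control names, 21.2 for all ethanol names and 21.6 for candidates in both libraries. The labels put RNA integrity (RIN) at 6.80 for control and 6.40 for ethanol heads, and its part in these lengths was not tested.

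**Figure D2:**
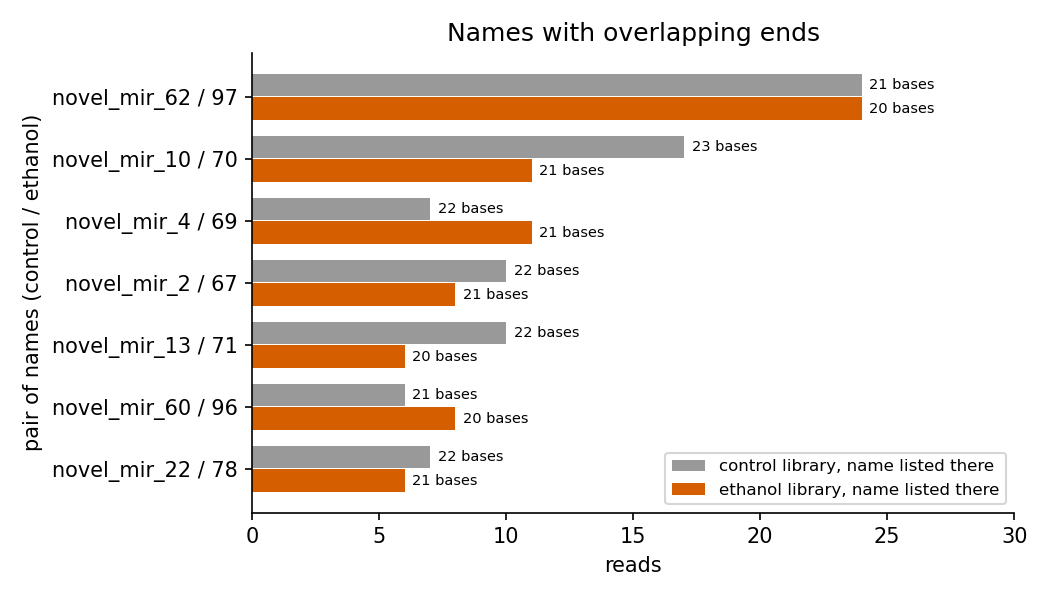
Reads (x axis) of the 7 pairs of candidate names with overlapping ends, the control name with its reads in the control library in grey and the ethanol name with its reads in the ethanol library in orange. The length of each sequence is written at its bar; the control name is longer in each pair, and novel_mir_62 and novel_mir_97 have 24 reads each.

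With pairs that differ by up to 2 bases counted as 1 product, 35 of 93 products (37.6%) were in both tables. Of the 11 candidates with 20 reads or more in 1 table alone, 2 were in such a pair and 9 were not. The longest stretch novel_mir_24 shared with any candidate of the ethanol library was 13 bases, with novel_mir_92. For novel_mir_36 the longest in the ethanol library was 10 bases and for novel_mir_54 it was 6. For novel_mir_89 the longest in the control library was 7 bases.

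One pair was complementary to a known miRNA. novel_mir_10 is the reverse complement of all 23 bases of miR-305-5p, so that its first base faces the last base of miR-305-5p, and novel_mir_70 is the reverse complement of 21 of them. miR-305, a regulator of intestinal stem cells in flies, is made as a pair of arms, and miR-305-5p itself had 14780 control and 14985 ethanol reads. novel_mir_10 had 0.115% as many control reads as miR-305-5p, and novel_mir_70 had 0.0734% as many ethanol reads. No other candidate shared more than 10 bases with the opposite strand of a known miRNA of these tables.

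One candidate overlapped a known miRNA on the same strand. novel_mir_15 shares 18 bases with miR-14-5p, an arm of a hairpin that restrains cell death and fat storage in flies, but starts 4 bases before it and ends 4 bases before its end. It therefore has another seed. novel_mir_15 had 35 control and 36 ethanol reads, and miR-14-5p had 50640 and 38105. novel_mir_15 was 0.0691% and 0.0945% of miR-14-5p. Its own ratio in CPM was 1.07 (0.65 to 1.76) and that of miR-14-5p was 0.785 (0.774 to 0.795). The interval of novel_mir_15 held both 1 and the ratio of miR-14-5p. Apart from this pair, the longest stretch shared with a known miRNA on the same strand was 11 bases, between novel_mir_64 and miR-4949-5p.

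Most candidates had 21 to 23 bases. Of the 99, 81 (81.8%, exact 95% interval 72.8 to 88.9%) were of this length, beside 212 of 240 known miRNAs (88.3%, 83.6 to 92.1%). The candidates ran from 20 to 24 bases and the known miRNAs from 20 to 29. There were 35 candidates of 21 bases and 35 of 22, while 38 known miRNAs had 21 and 115 had 22. At 20 bases there were 15 candidates (15.2%) and 5 known miRNAs (2.08%), and 12 of the 15 candidates held 50% guanine or more. The longest, at 24 bases, were novel_mir_11, novel_mir_33 and novel_mir_48.

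Uracil was the first base of 37 candidates (37.4%, 27.9 to 47.7%) and of 122 known miRNAs (50.8%, 44.3 to 57.3%). Guanine, the rarest first base of known miRNAs at 10.4%, was the first base of 28 candidates (28.3%). Of these 28, 22 held 50% guanine or more. Of the 56 candidates under 50% guanine, 6 (10.7%) began with guanine and 25 (44.6%) with uracil. The share with uracil was 41.4% among the candidates in both libraries, 41.7% among those of the control alone and 29.4% among those of the ethanol library alone. Weighted by reads, uracil began 47.9% of control and 41.7% of ethanol candidate reads, beside 92.1% and 92.4% of known miRNA reads. Among the 123 known miRNAs with no more reads than the most abundant candidate, 43.9% (34.97 to 53.1%) began with uracil, which lies within the candidates' interval. The last base was guanine in 38.4% of candidates and 26.2% of known miRNAs.

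**Figure D3:**
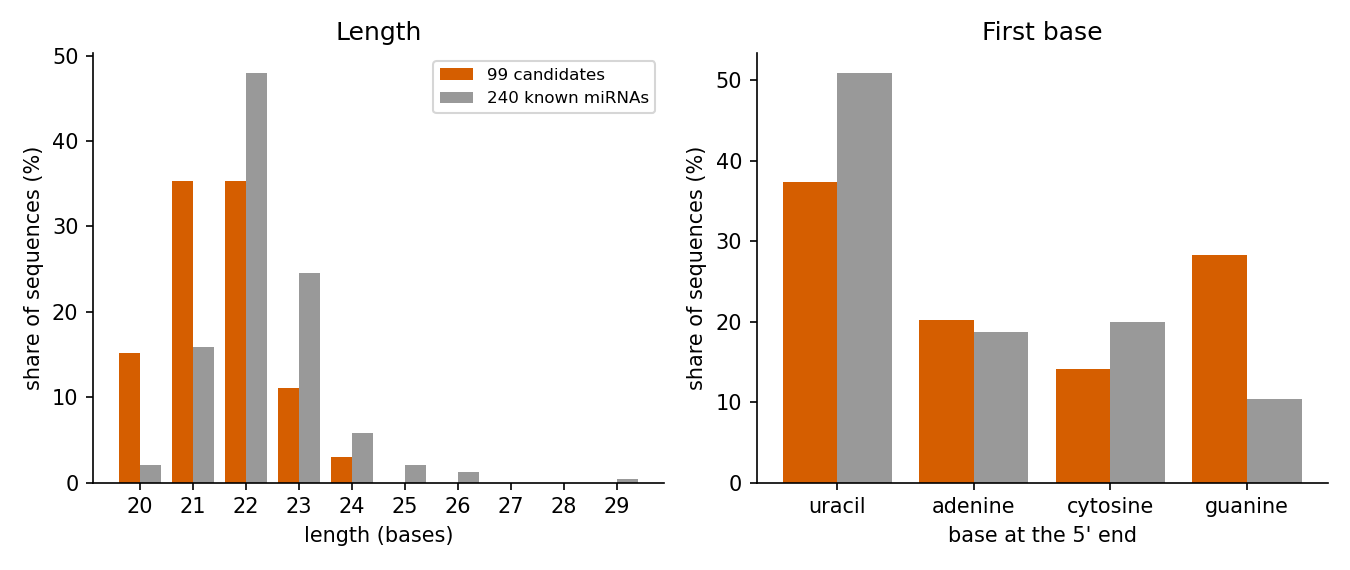
Share of sequences (y axes, %) by length in bases (left) and by base at the 5′ end (right) for the 99 candidates in orange and the 240 known miRNAs in grey. Candidates peak at 21 and 22 bases and known miRNAs at 22, and guanine begins 28.3% of candidates against 10.4% of known miRNAs.

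The candidates were rich in guanine. The median candidate held 45.5% guanine (quartiles 30.0 and 59.1%) and the median known miRNA 22.9% (18.2 and 30.4%). The medians of the other bases were lower in candidates: 18.2% against 23.8% for adenine, 14.3% against 20.8% for cytosine and 19.05% against 30.4% for uracil. Guanine and cytosine together made up a median of 60.9% and 44.5%. The highest in both together was novel_mir_36 at 85.7%. Known miRNAs as rare as the candidates had a median of 24% guanine. Of the 99 candidates, 26 held more guanine than any of the 240 known miRNAs, whose highest was 57.1%. No test was made, since sequences are not replicates and many share parts.

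A limit of 50% guanine, set after the values were seen, divides the candidates. There were 43 at or above it (43.4%, 33.5 to 53.8%) and 3 known miRNAs (1.25%, 0.26 to 3.61%). The split has no gap, as 4 candidates stood at exactly 50% and 8 between 45% and 50%. The guanine-rich share was 15 of the 29 candidates in both libraries, 15 of 36 in the control alone and 13 of 34 in the ethanol library alone. The 43 held 1198 of the control candidate reads (72.6%) and 849 of the ethanol ones (52.4%). Without novel_mir_24 and novel_mir_89, the abundant names of 1 table each, these shares were 66.1% and 66.3%, so the difference in reads rests on those 2 names.

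**Figure D4:**
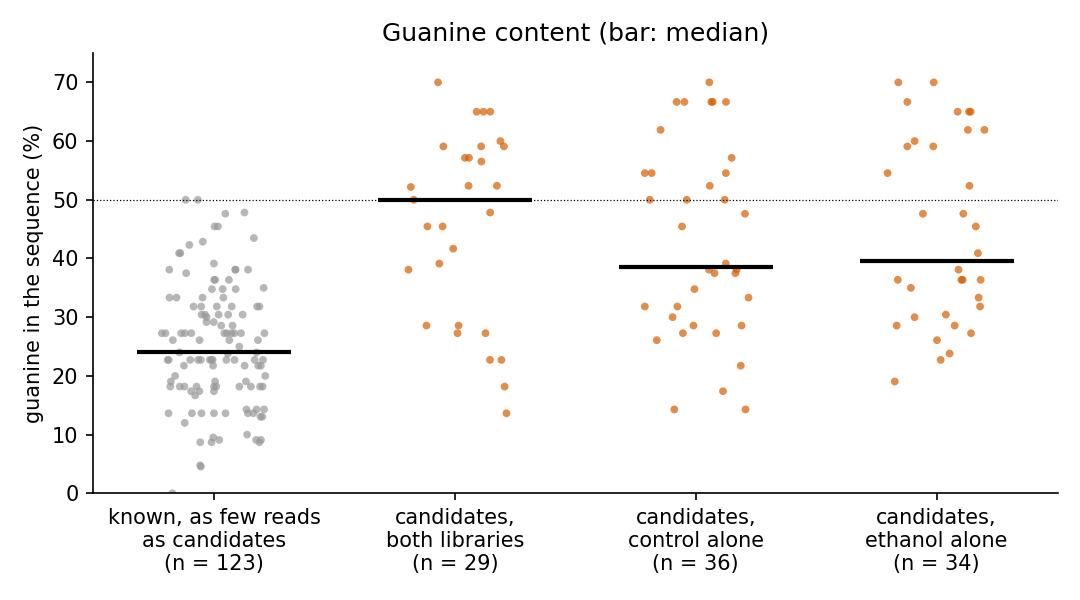
Percent guanine (y axis) of each known miRNA with no more reads than the most abundant candidate (grey) and of each candidate (orange) by the tables that list it, with the median as a bar and 50% as a dotted line. The medians are 24% for known miRNAs, and 50.0%, 38.6% and 39.5% for candidates in both libraries, the control alone and the ethanol library alone.

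Short runs of guanine were common in the candidates. A run of 3 guanines occurred in 57 candidates (57.6%) and 52 known miRNAs (21.7%), and at least 4 separate runs of 2 or more guanines in 40 candidates (40.4%) and 1 known miRNA (0.42%). Of those 40 candidates, 35 were guanine-rich and 5 were not. Runs become likelier as guanine content rises, and no comparison was made at like guanine content. The motif gtggg was chosen after the sequences were seen, so its excess over known miRNAs is a description of the letters only. It was in 30 candidates (30.3%), 29 of them guanine-rich, and in 7 known miRNAs (2.92%). It began 13 candidates and no known miRNA. The reverse complement of gtggg was in no candidate and 1 known miRNA. That reverse complement is mostly cytosine, of which the median candidate held 14.3%, so its count cannot show a preference of strand. In the guanine-rich candidates the share with guanine was 86.05% at base 3, 95.3% at base 4 and 67.4% at base 5, but 20.9% at base 2 and 32.6% at base 6. Past the seed, up to base 20, it ran from 46.5% at base 20 to 74.4% at base 18. A high share over the whole sequence follows from the limit of 50% guanine that defines these candidates. In the candidates under 50% guanine the share ran from 10.7% to 42.9% over the first 20 bases.

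**Figure D5:**
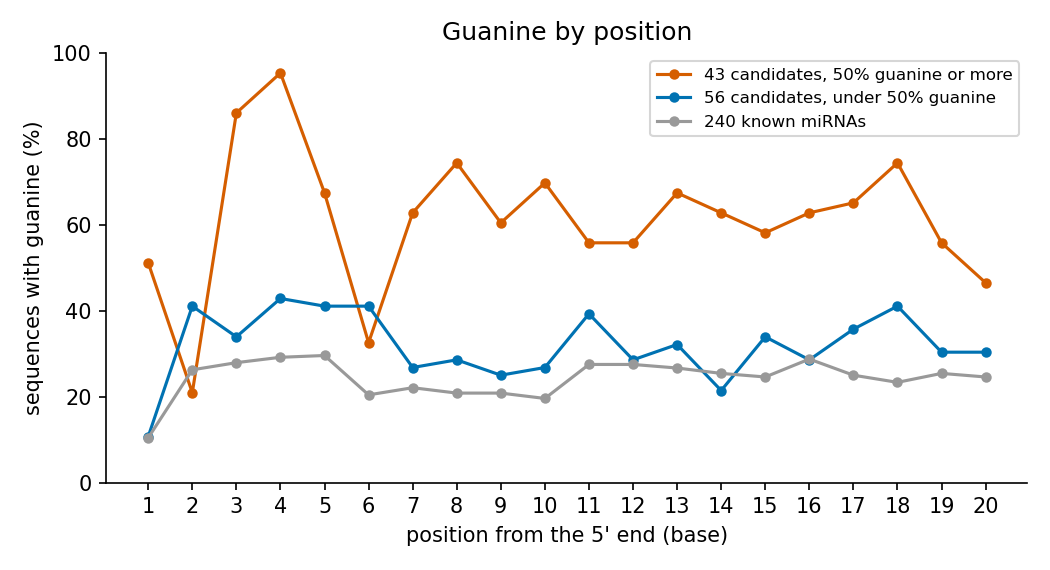
Share of sequences with guanine (y axis, %) at each of the first 20 bases from the 5′ end (x axis) for guanine-rich candidates (orange), other candidates (blue) and known miRNAs (grey). Guanine-rich candidates rise to 95.3% at base 4 and dip to 20.9% at base 2 and 32.6% at base 6, while known miRNAs stay between 10.4% and 29.6%.

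Groups of candidates had the same or nearly the same seed. The seed tgggcgg was shared by 6 candidates, novel_mir_17, novel_mir_36, novel_mir_81, novel_mir_87, novel_mir_92 and novel_mir_94, with 108 control and 67 ethanol reads in all. The seed tgggtgg was shared by novel_mir_28, novel_mir_53, novel_mir_91 and novel_mir_95, with 116 and 174 reads, and tgggagg by novel_mir_3, novel_mir_57 and novel_mir_98, with 14 and 22. Together with the pair novel_mir_62 and novel_mir_97, whose seed is tgggggg, 15 candidates had a seed of the form tgggngg, 11 after a first guanine and 4 after a first uracil. No known miRNA of these tables had such a seed. Anywhere in the sequence, tgggngg was in 24 candidates (24.2%) and 1 known miRNA (0.42%), 20 of the 24 also holding gtggg. Of the 24, 22 were guanine-rich, and tgggngg too was chosen after the sequences were seen. The reverse complement of tgggngg, also mostly cytosine, was in none of either, which cannot show a preference of strand.

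Seeds were shared mostly among the candidates themselves. There were 84 seeds among 99 candidates, and 23 candidates (23.2%) shared theirs with another candidate, 10 of these as members of a pair with overlapping ends. Of known miRNAs, 49 (20.4%) shared a seed. Only novel_mir_26, with 7 control and 6 ethanol reads, had the seed of a known miRNA, ggggtca of the printed miR-306-3p, which had 71 and 44 reads. A stretch of 10 or more bases in common with another candidate was found in 43 candidates (43.4%), 30 of them guanine-rich. Among known miRNAs, 31 (12.9%) had such a stretch in common with another known miRNA. The shares were 66.7% and 60.8% at 8 or more bases, and 28.3% and 7.5% at 12 or more. Some of the 43, such as novel_mir_4 and novel_mir_69, shared it only with the other name of their pair. No comparison was made at like guanine content. The longest exact complement between candidates was 10 bases, in novel_mir_64 and novel_mir_68. Complements with mismatches were not searched, so opposite arms of a hairpin can be neither found nor excluded in this way.

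A few candidates held a motif of transfer RNA genes. The A box, an inner promoter element near the start of transfer RNA genes, was searched by its consensus on both strands. It was in 8 candidates (8.08%, 3.55 to 15.3%) and 2 known miRNAs (0.83%, 0.10 to 2.98%), and its reverse complement was in no candidate and 2 known miRNAs. The 8 held 85 control and 424 ethanol reads, of which novel_mir_89 had 341. Of the 8, 6 had under 50% guanine. The others beside novel_mir_89 were novel_mir_7, novel_mir_23, novel_mir_25, novel_mir_33, novel_mir_35, novel_mir_39 and novel_mir_91. Within the A box, the letters tagctcag were in novel_mir_23, novel_mir_33 and novel_mir_39 and in no known miRNA. novel_mir_33 and novel_mir_39 share 19 bases, novel_mir_23 shares 16 with novel_mir_39, and the 3 had 25 control and 18 ethanol reads together. These motifs were chosen after the sequences were seen, transfer RNA sequences were not used here, and a match is a description of the letters only.

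For the candidates listed in both libraries, the comparison of ethanol with control asked whether levels differed after the exposure. Of 19 candidates with at least 20 reads over both, none was 2-fold higher or lower in CPM, while over all 229 products with that many reads 12 were, or 5.24%. Among the 112 products with no more reads than the most abundant candidate it was 8.04%, so a count of 0 of 19 is not read as a result about the candidates. Their ratios ran from 0.52 to 1.76, with 12 above 1 and 7 below. The median log2 ratio was 0.10, against 0.01 over all 229.

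Among the 19 candidates with 20 reads or more, the farthest from 1 was novel_mir_29, with 42 control and 21 ethanol reads, a ratio of 0.52 (0.29 to 0.90). It was the only 1 of the 19 whose counting interval excluded 1, and in RPM its ratio was 0.49, past 2-fold. Over all 229 products with 20 reads or more, the interval lay above 1 for 67, below 1 for 70 and held 1 for 92. Intervals narrow as reads rise, so 1 of 19 is not read as a result about the candidates. The next farthest from 1 of the 19 was novel_mir_1, with 15 and 8 reads and a ratio of 0.56 (0.20 to 1.40). novel_mir_6 had 13 and 22 reads, a ratio of 1.76 (0.85 to 3.81), and novel_mir_35 had 20 and 33 reads, a ratio of 1.72 (0.96 to 3.16). All 3 of these intervals held 1. With fewer than 20 reads, novel_mir_19 (14 and 5 reads, 0.37) and novel_mir_28 (5 and 11 reads, 2.29) lay farther from 1 than novel_mir_29, and both intervals held 1. The most abundant candidate, novel_mir_18, had a ratio of 1.07 (0.92 to 1.24). Of the 29 candidates, the intervals of novel_mir_18, novel_mir_53 (0.77 to 1.33), novel_mir_38 (0.78 to 1.78) and novel_mir_15 exclude a 2-fold difference in both directions.

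Across the 29 candidates in both libraries the log2 levels in control and ethanol correlated with r = 0.90 (Pearson) and rho = 0.80 (Spearman). The points share the 2 libraries, and candidates are not replicates. The 70 candidates in 1 table alone, novel_mir_24 and novel_mir_89 among them, have no place in this correlation. Listing in both tables, with no count below 5, keeps out large differences, so it does not describe all candidates. The log2 ratio and percent guanine had r = 0.29 and rho = 0.17 across the same 29. The 8 guanine-rich candidates with 20 reads or more had a median log2 ratio of 0.20 and the 11 others of -0.06. No test was made of this difference.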

How the data were processed

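Small RNA of 18 to 30 bases was cut from a gel and sequenced with an Illumina kit, per the labels' protocols. The authors deposited, for each library, the read count of every mature miRNA or candidate and its RPM. Dividing each count by the library total gave these RPM to within 4.9e-05. BDGP5 was the build named in the submitters' processing notes. How reads were aligned and how candidates were called was not given in the sources used here. From the authors' deposited comparison table, only counts were used.

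For names listed more than once the largest count was kept, and identical known sequences were used once. CPM is over reads of known miRNAs. Ratios carry exact conditional 95% intervals and shares exact binomial (Clopper-Pearson) ones. No p-value was computed, as each group has 1 library. Overlapping ends needed at least 15 identical bases. Alternatives used TMM factors (edgeR 4.0.16) and size factors (DESeq2 1.42.0). Other steps ran in Python 3.11.15 with SciPy 1.17.1 and were tested on simulated data. Candidates were named by most reads, listing in 1 table, 2-fold difference, overlap, shared seed, extreme length or extreme base content; novel_mir_1, novel_mir_6, novel_mir_13, novel_mir_19, novel_mir_35, novel_mir_71 and those of a motif or seed group were named after their values were seen. Members and lists were chosen with earlier results of these data known. Genome positions were not analysed here. No bound was set on the ratio of a candidate listed in 1 table.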

Additional observations from a re-analysis of the deposited data

How the results depend on the processing

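The share of candidates in both libraries depended on the count minimum: 29.3% of all, 48.9% with at least 10 and 52.2% with at least 20 reads in a library. The share of 21 to 23 bases was 81.8%, and 89.3% among candidates under 50% guanine, an alternative chosen after seeing the data. The median guanine content was 45.5%, and 52.4% when weighted by reads. No candidate paired with a known miRNA on the same strand at up to 3 bases of end difference, and 1, novel_mir_15, did at up to 5. None of 19 candidates passed 2-fold in CPM; 1 did in RPM (novel_mir_29), and 2 of 29 without a read minimum (novel_mir_19 with a ratio of 0.37 and novel_mir_28 with 2.29, both intervals holding 1). With bases 2 to 7 as the seed 5 candidates matched a known miRNA, and with bases 1 to 8 it was 0. The other 34 of 43 alternatives moved a result by less than its counting or list error, among them every alternative for the first base and the pairs of candidates. All 57 recomputed ratios of single candidates stayed within their intervals, but each alternative scaling multiplies every ratio by the same factor. The shift was small beside every interval, so this adds no support for single ratios. No paired analysis was possible because each group has 1 library, and no replicate could be left out. The 29 candidates with a ratio had a median of 24 reads over both libraries, which limits the precision of single ratios.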
